A study of Homo sapiens with 9 samples.

Results

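The genes described here are 10 immediate early genes: the AP-1 subunits FOS, FOSB, FOSL1, JUN, JUNB and JUND, the zinc-finger factor EGR1, the early response genes IER2 and IER3, and the phosphatase gene DUSP1. They were chosen by name, all 10 have a row among the 26240 genes of the deposited count table, and all 10 passed the filter on low counts that left 16837 genes for testing. RNA was sequenced from definitive endoderm made from H9, a widely used line of human embryonic stem cells. The 9 libraries fall into homozygous CHD7-/-, heterozygous CHD7+/- and wild-type CHD7+/+ cells, with 3 libraries of each. CHD7, a chromatin remodeller gene, had been deleted with CRISPR/Cas9. All groups share the H9 background and the endoderm label. The labels give neither the deleted interval nor the endoderm protocol and name no clones, separate cultures or days, so a p-value here reflects only how far these libraries vary, and that variation may be technical.

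Immediate early genes are transcribed within minutes of a growth factor, serum or stress signal, without new protein synthesis. ERK and other MAP kinases act on factors such as SRF with its ELK partners and CREB, which sit at CArG boxes and cyclic AMP response elements (CREs) in the promoters of these genes. FOS and JUN proteins then pair through leucine zippers to form AP-1, while DUSP1 removes phosphate from the kinases and closes the loop. Their transcripts turn over fast and respond to dissociation, washing or cooling of cells, so they are also read as signs of how a sample was handled.

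Promoter windows of 4 members are shown because these windows hold the elements in different kinds and numbers. RefSeq windows of 300 bases on GRCh38.p14, from 250 bases before the start to 50 after it, were found for 8 of the 10 members. The start is that of RefSeq and can differ from the gene coordinates given below, which come from GENCODE. The JUN window lies wholly within those coordinates of JUN. FOSL1 and IER3 were not matched. Capitals mark CArG boxes, CRE-type sites (TGACNTCA), the shorter CRE core (TGACG), which also lies within a full CRE, and AP-1 sites (TGANTCA), on either strand.
EGR1 (chr5:138465229-138465528, plus strand): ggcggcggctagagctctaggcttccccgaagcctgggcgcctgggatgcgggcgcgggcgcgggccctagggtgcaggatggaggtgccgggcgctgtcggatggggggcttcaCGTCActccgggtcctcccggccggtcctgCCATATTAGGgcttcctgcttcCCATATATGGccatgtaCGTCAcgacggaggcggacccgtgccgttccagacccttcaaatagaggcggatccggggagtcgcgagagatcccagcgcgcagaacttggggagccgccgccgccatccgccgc
FOS (chr14:75278578-75278877, plus strand): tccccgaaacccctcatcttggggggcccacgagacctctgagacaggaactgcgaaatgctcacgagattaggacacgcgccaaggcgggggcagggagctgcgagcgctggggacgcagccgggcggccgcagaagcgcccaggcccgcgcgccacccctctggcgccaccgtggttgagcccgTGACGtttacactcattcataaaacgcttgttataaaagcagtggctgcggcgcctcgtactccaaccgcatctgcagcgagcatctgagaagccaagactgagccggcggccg
JUN (chr1:58783998-58784297, minus strand): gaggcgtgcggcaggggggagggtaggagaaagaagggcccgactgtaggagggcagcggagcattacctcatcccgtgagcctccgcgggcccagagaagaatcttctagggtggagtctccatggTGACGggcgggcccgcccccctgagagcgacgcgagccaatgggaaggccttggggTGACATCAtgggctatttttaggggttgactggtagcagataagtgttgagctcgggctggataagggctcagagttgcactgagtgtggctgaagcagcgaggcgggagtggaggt
JUND (chr19:18281573-18281872, minus strand): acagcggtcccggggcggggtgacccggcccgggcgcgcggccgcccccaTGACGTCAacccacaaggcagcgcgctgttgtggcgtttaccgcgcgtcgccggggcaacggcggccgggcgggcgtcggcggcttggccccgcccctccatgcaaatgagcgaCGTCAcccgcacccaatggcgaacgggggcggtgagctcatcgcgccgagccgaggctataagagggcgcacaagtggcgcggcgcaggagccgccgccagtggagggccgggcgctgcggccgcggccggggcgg

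The EGR1 window held 2 CArG boxes and none of the other 7 member windows held one, against 1.30% of 34943 windows in the whole table. The CRE core was present in all 8 member windows, against 24.5% of all windows. A CRE-type site was present in 3 member windows, those of JUN, JUND and DUSP1, against 7.71% of all windows. The AP-1 letters were in none of the 8 and in 7.72% of all windows. The letters GCGNGGGCG, which EGR proteins bind, were in the EGR1 window and in no other member's, against 9.41% of all windows. These matches describe letters in 300 bases and were not tested as sites. Bases more than 250 before the start were not searched, so a window without an element does not show that the promoter lacks it.

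Total counts ranged from 11854173 to 29849352 in homozygous, 23488722 to 30581464 in heterozygous and 24781297 to 37519729 in wild-type libraries. CHD7 transcript levels followed the labels without overlap, at 43.0 to 56.1 CPM, the counts scaled to library size, in homozygous, 110.4 to 130.5 CPM in heterozygous and 189.2 to 194.9 CPM in wild-type libraries. All 9 endoderm markers, among them SOX17, FOXA2 and CXCR4, were present in every library, the least abundant, GATA4, at 42.2 to 68.7 CPM. Their summed level was 7053 to 8179 CPM in homozygous, 8739 to 9796 CPM in heterozygous and 10450 to 11250 CPM in wild-type libraries. Of the markers of other cell types, MESP1, HAND1 and MEOX1 (mesoderm), SOX1 and ZIC1 (neuroectoderm), TFAP2A and TP63 (trophoblast and amnion) and COL3A1 and LUM (fibroblast) stayed at or below 0.298 CPM in every library. The summed mesoderm markers, mostly KDR, had 20.8 to 34.5 CPM in homozygous, 32.4 to 41.5 CPM in heterozygous and 43.4 to 58.9 CPM in wild-type libraries. The neuroectoderm sum, nearly all NES, had 304.6 to 355 CPM, 317 to 375 CPM and 354 to 396 CPM in homozygous, heterozygous and wild-type libraries. The fibroblast sum, nearly all COL1A1, had 35.2 to 60.4 CPM in homozygous, 46.2 to 51.7 CPM in heterozygous and 22.7 to 40.7 CPM in wild-type libraries. COL1A1 itself was not called (0.79 in each mutant relative to wild type, adjusted p = 0.0530 and 0.116), but without wild-type replicate 1 (0.00449 and 0.00965) or homozygous replicate 3 (0.00786 and 0.0323), and by DESeq2 (0.00671 and 0.0158), it was. In homozygous relative to wild-type cells, 3 of the 9 endoderm markers were called lower, against 4.18% of all genes. CER1 fell by 0.65, FOXA2 by 0.55 and HHEX by 0.44 on the log2 scale (edgeR adjusted p = 0.00257, 0.00302 and 0.0124, HHEX 0.0617 without wild-type replicate 2). All 9 had log2 fold changes below 0 in each mutant relative to wild type. In each, 5 of the 9 were lower without overlap, where 15.7% (homozygous) and 11.1% (heterozygous) of all genes were. The mesoderm marker KDR fell by 1.05 (adjusted p = 0.00419), and the 3 tested mesoderm markers ranged from -1.12 to 0.51. TBXT (-1.12, adjusted p = 0.0731) was called in 5 of 15 alternatives only. The amnion marker GATA3, the only tested gene of its list, rose (1.36, adjusted p = 0.00233), at a low level. The trophoblast and amnion markers together had 2.742 to 3.343 CPM in homozygous libraries. Their sum was 1.144 to 1.4 CPM in heterozygous and 1.121 to 1.509 CPM in wild-type libraries. The part of cell composition in the values below was not tested. The pluripotency genes POU5F1, NANOG and SOX2 were detected in all 9 libraries and are given beside EGR1 below. Mitochondrially encoded protein genes took 4.39% to 5.12% of counts in homozygous, 4.68% to 6.06% in heterozygous and 4.66% to 4.99% in wild-type libraries. CPM use TMM factors throughout, and SD is over 3 libraries.

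The 10 genes spanned a wide range of levels, and the order was led by JUND. Per kilobase of annotated exon, the mean level over 9 libraries was 98.9 CPM for JUND, the AP-1 subunit that many cell types keep at a steady level. IER3, an early response gene linked to cell survival and ERK signalling, followed at 32.6 CPM per kilobase and IER2, a small nuclear protein gene, at 27.0. The libraries of IER3 and IER2 overlapped on this scale. DUSP1 stood at 12.5 and JUN, the founding JUN subunit, at 6.84 CPM per kilobase, again with overlapping libraries. JUNB stood at 2.11 CPM per kilobase and overlapped neither JUN above it nor EGR1 below it. EGR1 (0.734), FOS (0.598), FOSL1 (0.246) and FOSB (0.202) closed the order, and each overlapped its neighbour. On this scale JUND lay above 97.7% and FOSB above 9.10% of 16532 tested genes with a known exon length.

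**Figure D1:**
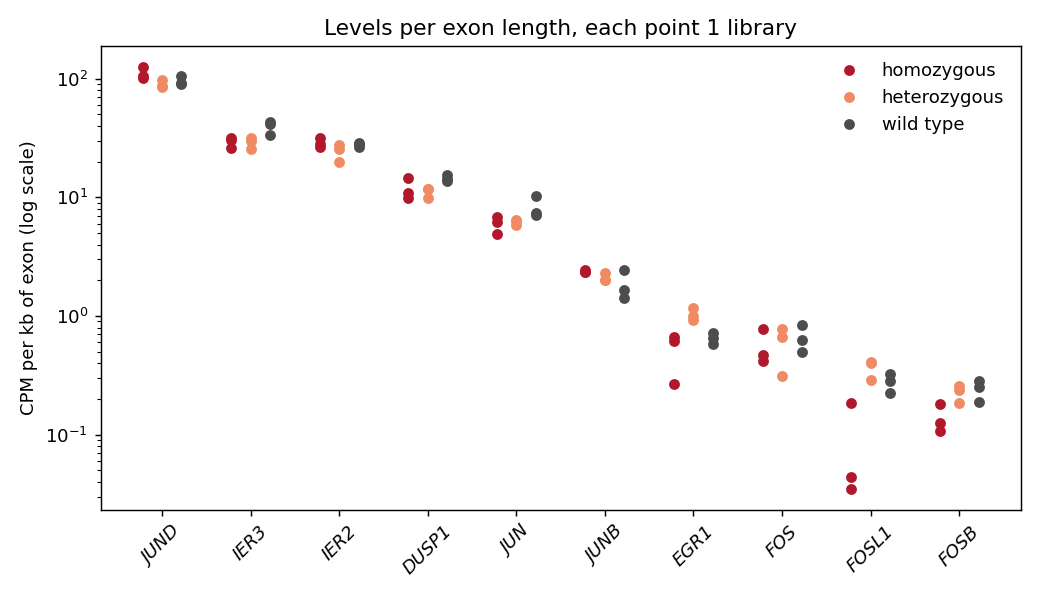
Level of each gene per kilobase of exon (CPM per kb, log axis), 1 point per library, coloured by genotype. JUND stands at 84.6 to 125.5 CPM per kb in all 9 libraries, while FOS, FOSB, FOSL1 and EGR1 lie at or below 1.18.

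In homozygous relative to wild-type cells 1 of the 10 genes, IER3, passed the test, and it fell. A single called gene of 10 compares with 7.68% of all genes called in this comparison, and 4.18% called downwards. At an unadjusted p below 0.05 there were 4 members, against 23.2% of all genes. Neither other comparison called a member: 0 of 10 in heterozygous relative to wild-type cells and 0 of 10 in homozygous relative to heterozygous cells, where 1.86% and 2.21% of all genes were called by edgeR. At an unadjusted p below 0.05 these comparisons had 4 members each, against 13.5% and 18.3% of all genes. DESeq2 called 2, 1 and 2 members in the comparisons in this order, against 9.78%, 2.95% and 4.99% of the genes it gave an adjusted p. Pairs of these comparisons share a genotype, so their values are not independent. The median log2 fold change of the members was -0.33, -0.13 and -0.02, beside 0.01, 0.00 and 0.01 over all genes tested.

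**Figure D2:**
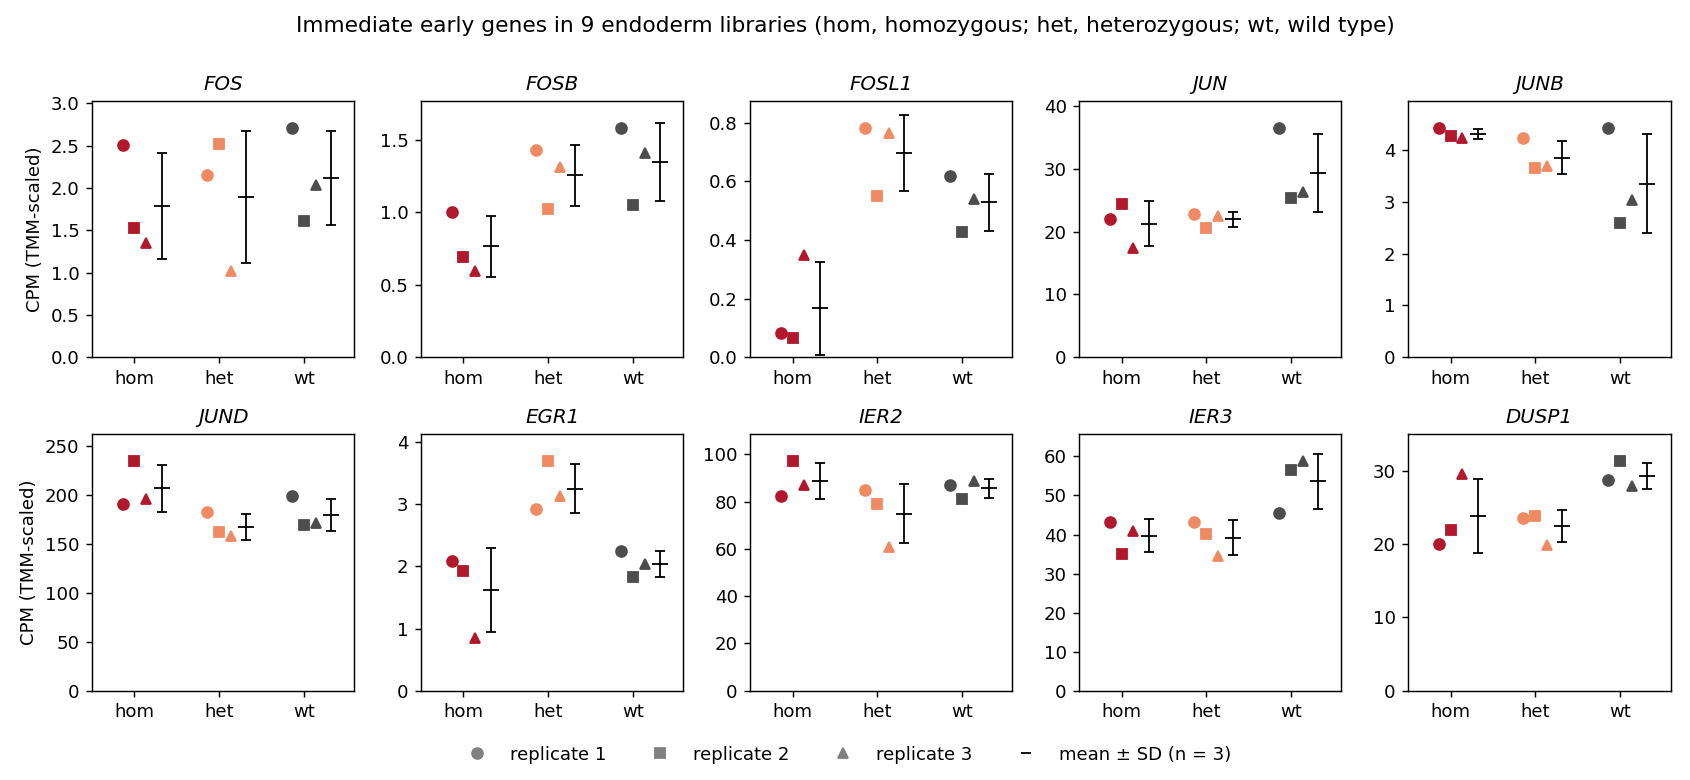
CPM of each of the 10 genes in each library, in homozygous, heterozygous and wild-type cells from left to right, with the mean ± SD of 3 libraries beside the points. IER3 lies lower in all 3 homozygous libraries than in any wild-type library, while the libraries of FOS overlap between the 3 genotypes.

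IER3 (ENSG00000137331, chromosome 6, 30743199 to 30744554, minus strand of GRCh38) had 43.1, 35.1 and 41.0 CPM in homozygous, 43.1, 40.1 and 34.4 CPM in heterozygous and 45.6, 56.5 and 58.7 CPM in wild-type replicates 1, 2 and 3. All 6 mutant libraries lay below all 3 wild-type libraries, and the mutant genotypes overlapped each other. The log2 fold change was -0.44 (SE 0.12, edgeR adjusted p = 0.0495) in homozygous relative to wild-type cells, 0.739-fold. It was -0.45 (SE 0.12, edgeR adjusted p = 0.0988) in heterozygous relative to wild-type cells and 0.01 (SE 0.12, edgeR adjusted p = 0.964) between the mutants. The homozygous call lies at the threshold and was lost with relative log expression scaling (adjusted p = 0.0505), upper quartile scaling (0.0661) and a fit of the 6 libraries alone (0.0553). It was also lost without wild-type replicates 2 (0.198) or 3 (0.194), heterozygous replicate 2 (0.0814) or homozygous replicates 1 (0.0701) or 2 (0.167). The heterozygous difference was called by DESeq2 (adjusted p = 0.0321) and by edgeR when wild-type replicate 1 was left out (0.0443). In bulk RNA, fewer cells that express a gene and less RNA per cell cannot be told apart, here and for every gene below.

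DUSP1 (ENSG00000120129, chromosome 5, 172768090 to 172771195, minus strand), the MAP kinase phosphatase, had 20.0, 21.9 and 29.6 CPM in homozygous, 23.6, 23.8 and 19.9 CPM in heterozygous and 28.7, 31.3 and 28.0 CPM in wild-type replicates 1, 2 and 3. Every heterozygous library lay below every wild-type library, whereas homozygous replicate 3 reached the wild-type range. Its log2 fold change was -0.30 (SE 0.14, edgeR adjusted p = 0.221) in homozygous and -0.38 (SE 0.14, edgeR adjusted p = 0.223) in heterozygous relative to wild-type cells. Without homozygous replicate 3 the first of these was -0.48 and was called (adjusted p = 0.0199). IER2 (ENSG00000160888) had 82.2, 97.0 and 86.9 CPM in homozygous, 84.8, 79.0 and 60.8 CPM in heterozygous and 86.9, 80.9 and 88.9 CPM in wild-type replicates. All but heterozygous replicate 3 lay within 79.0 to 97.0 CPM, and no comparison called IER2 (adjusted p from 0.282 to 0.818).

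JUN (ENSG00000177606, chromosome 1, 58780788 to 58784327, minus strand) had 22.0, 24.4 and 17.4 CPM in homozygous, 22.8, 20.6 and 22.5 CPM in heterozygous and 36.5, 25.3 and 26.3 CPM in wild-type replicates 1, 2 and 3. The mutant libraries all lay below the wild-type ones, and wild-type replicate 1 stood apart above the rest. The log2 fold change was -0.47 (SE 0.16, edgeR adjusted p = 0.0888) in homozygous and -0.42 (SE 0.15, edgeR adjusted p = 0.236) in heterozygous relative to wild-type cells. Without wild-type replicate 1 these were -0.28 (adjusted p = 0.288) and -0.23 (adjusted p = 0.493), and DESeq2 called the homozygous difference (-0.47, adjusted p = 0.0496). JUND (ENSG00000130522) had 190.1, 234 and 195 CPM in homozygous, 182, 162 and 158 CPM in heterozygous and 198, 169 and 171 CPM in wild-type replicates. Homozygous libraries all lay above heterozygous ones, by a log2 fold change of 0.31 (SE 0.10, edgeR adjusted p = 0.142), and overlapped wild type (0.20, SE 0.10, edgeR adjusted p = 0.247).

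JUNB (ENSG00000171223), a JUN paralog that often acts against JUN, had 4.43, 4.27 and 4.24 CPM in homozygous, 4.23, 3.65 and 3.69 CPM in heterozygous and 4.43, 2.59 and 3.03 CPM in wild-type replicates. Wild-type replicate 1 again lay above its genotype, inside the homozygous range. The log2 fold change in homozygous relative to wild-type cells was 0.35 (SE 0.21, edgeR adjusted p = 0.332), and without wild-type replicate 1 it was 0.62 (adjusted p = 0.0912). All 1820 bases of JUNB lie within HOOK2 on the opposite strand. HOOK2 had 236 to 701 counts per library, against 53 to 165 for JUNB. The strand setting is not known, so reads of the 2 genes cannot be told apart with certainty.

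FOS, FOSB and FOSL1 were low in every library. FOS (ENSG00000170345, chromosome 14, 75278774 to 75282230, plus strand) had 2.51, 1.52 and 1.35 CPM in homozygous, 2.15, 2.52 and 1.02 CPM in heterozygous and 2.71, 1.61 and 2.03 CPM in wild-type replicates 1, 2 and 3. These levels rest on 24 to 101 counts per library, and the genotypes overlapped throughout. No comparison called FOS (adjusted p from 0.639 to 0.901), and its log2 fold change was -0.30 (SE 0.35) in homozygous relative to wild-type cells.

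FOSB (ENSG00000125740), the paralog best known from neurons, had 1.003, 0.695 and 0.598 CPM in homozygous, 1.43, 1.02 and 1.31 CPM in heterozygous and 1.58, 1.05 and 1.41 CPM in wild-type replicates. Homozygous libraries lay below all others, by a narrow margin for homozygous replicate 1. The log2 fold change was -0.87 (SE 0.30, edgeR adjusted p = 0.107) against wild-type and -0.77 (SE 0.31, edgeR adjusted p = 0.217) relative to heterozygous cells. All 7185 bases of FOSB lie within ERCC1 on the opposite strand, which had 381 to 1300 counts per library, against 12 to 59 for FOSB, so the limit given for JUNB holds here too.

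FOSL1 (ENSG00000175592, chromosome 11, 65892049 to 65900573, minus strand), which encodes the subunit FRA1, a longer-lasting product of ERK signalling, had the largest fold change of the 10 genes and the fewest counts. It had 1, 2 and 7 counts in homozygous, 24, 15 and 18 counts in heterozygous and 23, 13 and 13 counts in wild-type replicates 1, 2 and 3. Scaled to library size this was 0.0836, 0.0662 and 0.349 CPM in homozygous, 0.781, 0.548 and 0.763 CPM in heterozygous and 0.617, 0.426 and 0.540 CPM in wild-type libraries. Every homozygous library lay below the other 6. The log2 fold change was -1.67 (SE 0.54, edgeR adjusted p = 0.0839) in homozygous relative to wild-type cells and -2.06 (SE 0.53, edgeR adjusted p = 0.0680) relative to heterozygous cells, so neither passed. Both were called without homozygous replicate 3 (-2.81 with adjusted p = 0.0126, and -3.21 with adjusted p = 0.0173), and DESeq2 called the second (adjusted p = 0.0445). Heterozygous and wild-type libraries overlapped (0.39, SE 0.41, edgeR adjusted p = 0.746).

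Over the 10 genes, 4 did not overlap and were lower in homozygous than in wild-type libraries (FOSB, FOSL1, JUN and IER3), a pattern of 15.7% of all genes tested, and 0 were higher without overlap, a pattern of 13.2%. In heterozygous against wild-type libraries 3 were lower without overlap (JUN, IER3 and DUSP1) and 1 higher (EGR1), each a pattern of 11.1% of all genes. In homozygous against heterozygous libraries 3 were lower without overlap (FOSB, FOSL1 and EGR1), where 10.5% of all genes were, and 2 higher (JUNB and JUND), where 9.02% were. The margin for JUNB was narrow, at 4.238 CPM in homozygous replicate 3 against 4.232 CPM in heterozygous replicate 1. Its log2 fold change there was 0.16 (SE 0.21, edgeR adjusted p = 0.714).

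**Figure D3:**
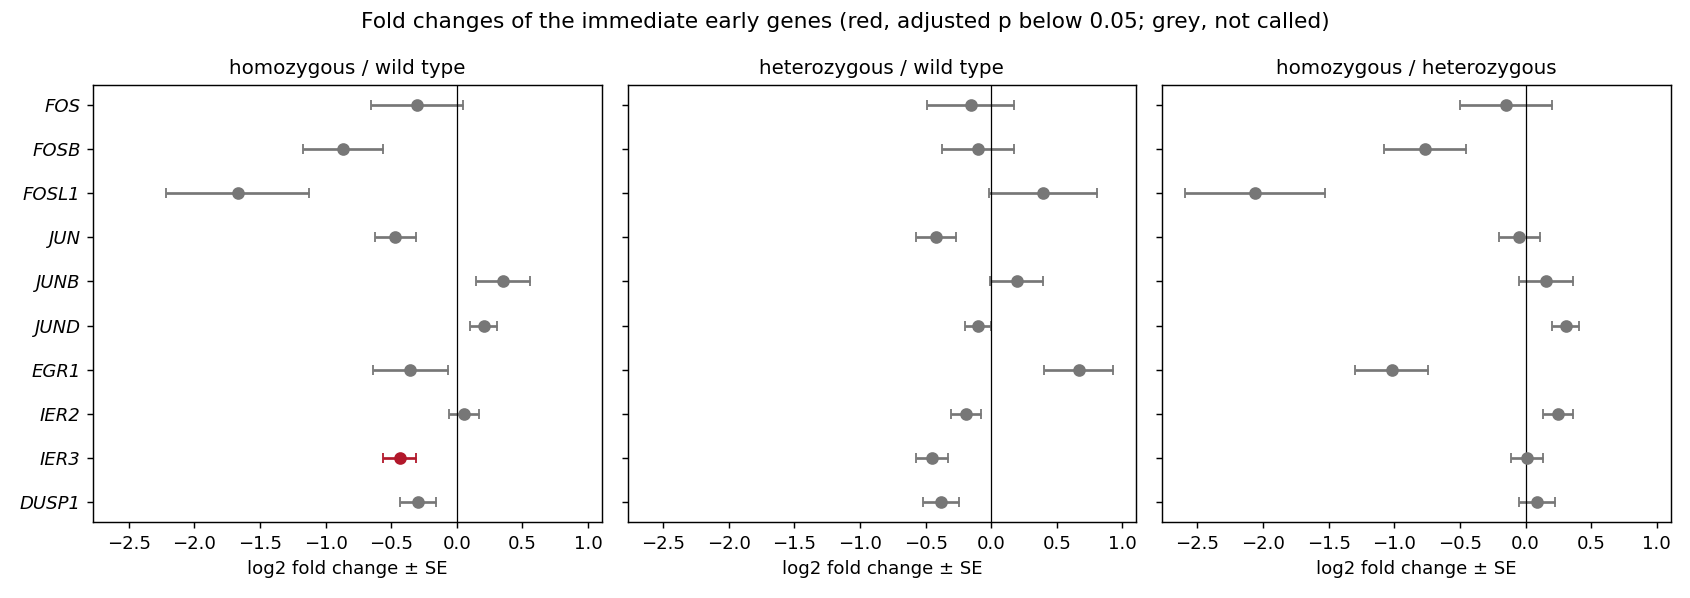
Log2 fold change ± SE of each gene in the 3 comparisons, homozygous over wild type, heterozygous over wild type and homozygous over heterozygous. IER3 in the left panel is the single called value (red, adjusted p = 0.0495), and FOSL1 has the widest errors, with SE of 0.41 to 0.54.

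EGR1 (ENSG00000120738, chromosome 5, 138465490 to 138469315, plus strand), a zinc-finger factor induced by ERK through its CArG boxes, had 2.09, 1.92 and 0.848 CPM in homozygous, 2.93, 3.69 and 3.14 CPM in heterozygous and 2.25, 1.84 and 2.03 CPM in wild-type replicates 1, 2 and 3. It was highest in the 3 heterozygous libraries, and homozygous replicate 3 was the lowest of the 9. The log2 fold change was -1.02 (SE 0.28, edgeR adjusted p = 0.0835) in homozygous relative to heterozygous cells and 0.67 (SE 0.26, edgeR adjusted p = 0.283) in heterozygous relative to wild-type cells, and neither passed. DESeq2 called the difference between the mutants (-1.03, adjusted p = 0.0212). Homozygous and wild-type cells differed by -0.35 (SE 0.29, edgeR adjusted p = 0.488), and by -0.04 without homozygous replicate 3 (adjusted p = 0.926).

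Pluripotency genes varied in the same libraries. POU5F1, a core pluripotency factor whose retrocopies can share its reads, had 122, 114 and 33.5 CPM in homozygous, 193, 168 and 116 CPM in heterozygous and 95.3, 56.1 and 57.4 CPM in wild-type replicates 1, 2 and 3. NANOG, its partner, had 5.27, 5.96 and 1.45 CPM, 16.6, 14.7 and 8.44 CPM, and 12.5, 9.12 and 9.63 CPM in homozygous, heterozygous and wild-type replicates. SOX2 had 5.93, 6.39 and 0.848 CPM in homozygous, 19.1, 15.9 and 5.59 CPM in heterozygous and 7.11, 4.07 and 3.36 CPM in wild-type replicates. NANOG was lower in homozygous than in heterozygous cells by a called log2 fold change of -1.65 (adjusted p = 0.0401). The call was lost in 7 of 15 alternatives, the 6-library fit (0.105) and leaving out wild-type replicates 1 (0.0509), 2 (0.0631) or 3 (0.0659), heterozygous replicates 1 (0.0876) or 2 (0.139) or homozygous replicate 1 (0.0699). SOX2 was not called between the mutants (-1.64, edgeR adjusted p = 0.1465) or in heterozygous relative to wild-type cells (1.47, 0.2261). POU5F1 was not called in heterozygous (1.19, 0.158) or homozygous (0.36, 0.5875) relative to wild-type cells. In the same order, 1, 2, 3 and 1 of 15 alternatives called them. NANOG in homozygous relative to wild-type cells (-1.30, 0.0547) was called in 5 of 15 alternatives only. Homozygous replicate 3 was the lowest of the 9 libraries for EGR1 and for these 3 of the 5 listed stem cell markers. The other 2 markers, DPPA4 and LIN28A, lay above their homozygous mean in that library. Among heterozygous libraries POU5F1, NANOG and SOX2 were lowest in replicate 3, whereas EGR1 was lowest in replicate 1. All 5 listed stem cell markers were detected in every library. Their summed level was 2222 to 2312 CPM in homozygous, 2122 to 2457 CPM in heterozygous and 2431 to 2595 CPM in wild-type libraries, most of it LIN28A. The part of remaining stem cells in the level of EGR1 was not tested.

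**Figure D4:**
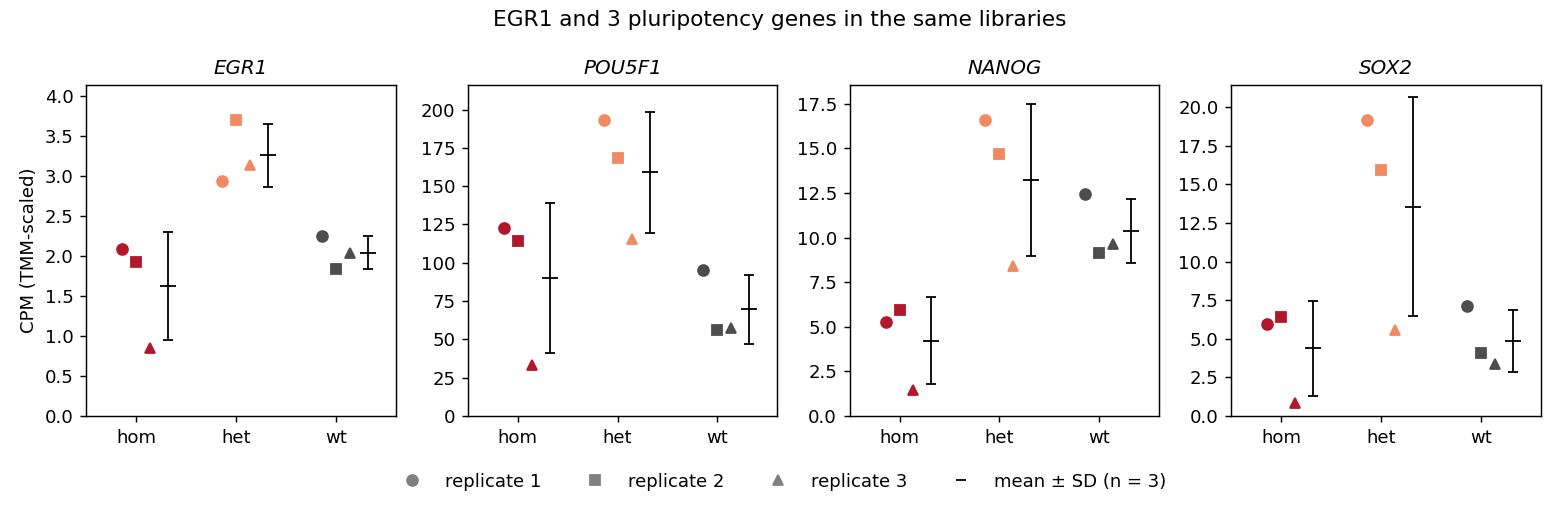
CPM of EGR1, POU5F1, NANOG and SOX2 in each library, homozygous, heterozygous and wild type from left to right, with the mean ± SD of 3 libraries. Homozygous replicate 3 (red triangle) is the lowest point in each panel, at 0.848 CPM for EGR1, and the highest points are heterozygous.

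The other EGR genes were near the limit of detection. EGR2, EGR3 and EGR4 had at most 13 counts in any library and did not pass the filter. The EGR co-repressor genes NAB1 and NAB2, of which EGR1 induces NAB2, were not called in any comparison, with log2 fold changes in homozygous relative to wild-type cells of -0.32 and 0.43 (adjusted p = 0.226 and 0.399). Neither had an unadjusted p below 0.05 there, DESeq2 called neither in any comparison, and NAB1 was called without homozygous replicate 3 (adjusted p = 0.0478), as was NAB2 in heterozygous relative to wild-type cells without wild-type replicate 1 (0.0495).

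Among 13 other genes whose products pair with or resemble AP-1 subunits, 11 were tested and 2 fell in homozygous relative to wild-type cells, none rising, against 4.18% of all genes called lower. The same 2 fell relative to heterozygous cells, where 1.22% of all genes were called lower. ATF3, a stress-induced partner of JUN, had 24.8 ± 2.33 CPM in homozygous, 46.6 ± 8.19 CPM in heterozygous and 59.8 ± 5.82 CPM in wild-type cells (SD, n = 3 each). It fell by 1.27 on the log2 scale (SE 0.13, edgeR adjusted p = 6.28e-05) against wild-type and by 0.91 (adjusted p = 0.00252) relative to heterozygous cells. BATF3, a JUN partner known from dendritic cells, had 2.48 ± 0.493 CPM in homozygous, 6.47 ± 1.95 CPM in heterozygous and 6.89 ± 1.66 CPM in wild-type cells. It fell by 1.47 (SE 0.26, edgeR adjusted p = 0.00367) against wild-type and by 1.36 (adjusted p = 0.0173) relative to heterozygous cells, and this second call was lost without heterozygous replicate 3 (adjusted p = 0.0507). The 3 most abundant others, the small MAF gene MAFG and the CRE-binding factor genes ATF2 and ATF7, were not called (-0.12, -0.23 and -0.24, adjusted p = 0.577, 0.410 and 0.339). The median of the 11 was -0.23 in homozygous relative to wild-type cells. In heterozygous relative to wild-type cells 0 of the 11 were called by edgeR or DESeq2. There 3 had an unadjusted p below 0.05, against 13.5% of all genes.

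A list of 36 further immediate early and early response genes held 33 tested genes, of which 2 rose and 3 fell in homozygous relative to wild-type cells (3.5% and 4.18% of all genes), with a median log2 fold change of -0.10. NR4A3, an orphan nuclear receptor, fell by 1.64 (SE 0.37, edgeR adjusted p = 0.0157), with 0.752, 0.695 and 2.49 CPM in homozygous and 3.70, 4.82 and 3.86 CPM in wild-type replicates. PLK2, a polo-like kinase gene, fell by 0.76 (adjusted p = 0.0278) and RHOB, a small GTPase gene, by 0.37 (adjusted p = 0.0335). GADD45G, a stress and growth arrest gene, rose by 0.84 (SE 0.16, edgeR adjusted p = 0.00744), with 10.9 ± 1.90 CPM in homozygous and 6.19 ± 0.988 CPM in wild-type cells (SD, n = 3 each). BTG2, an antiproliferative gene, rose by 0.29 (adjusted p = 0.0479). NR4A3 was no longer called when wild-type replicate 2 was left out (adjusted p = 0.0712), nor without homozygous replicates 1 (0.0619) or 2 (0.0597). The PLK2 call was lost without wild-type replicates 2 (0.132) or 3 (0.110) or homozygous replicates 1 (0.101) or 2 (0.108), and in the fit of 6 libraries (0.0557). The RHOB call was lost without wild-type replicates 1 (0.0586), 2 (0.112) or 3 (0.152) or homozygous replicate 1 (0.130), and with upper quartile scaling (0.0560). BTG2 was called in 5 of 15 alternatives, and its call was lost without any 1 of 8 libraries, all but heterozygous replicate 3 (0.0592 to 0.167), while GADD45G was called in all 15. The 4 most abundant genes of the list, MCL1, NFKBIA, SRF and KLF6, were not called (adjusted p = 0.134, 0.323, 0.279 and 0.775), though MCL1 was without homozygous replicate 3 (0.0392). None of the 33 was called by edgeR in heterozygous relative to wild-type cells, with 13 at an unadjusted p below 0.05, or between the mutants, with 4. Of all genes, 13.5% and 18.3% had such a p in these comparisons. DESeq2 called 2 and 1 of the 33, against 2.95% and 4.99% of the genes it gave an adjusted p. With single libraries left out edgeR called up to 3 and up to 2 of the 33.

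Upstream of these genes, 1 of 19 regulators fell in homozygous relative to wild-type cells and none rose, against 4.18% of all genes called lower. In each other comparison 0 were called by edgeR, with 2 at an unadjusted p below 0.05. Such a p was reached by 13.5% of all genes in heterozygous relative to wild-type cells and by 18.3% between the mutants. DESeq2 called 0 and 2 regulators in these comparisons, against 2.95% and 4.99% of the genes it gave an adjusted p. The fallen gene was MAPK3, which encodes ERK1, with 44.9 ± 5.80 CPM in homozygous and 61.4 ± 2.87 CPM in wild-type cells (log2 fold change -0.45, SE 0.11, edgeR adjusted p = 0.0216), a call lost with upper quartile scaling (0.0501) and without homozygous replicate 1 (0.0654) or wild-type replicates 1 (0.0765), 2 (0.0629) or 3 (0.0642). The 3 most abundant, SRF and the ERK cascade kinase genes MAP2K1 and MAP2K2, were not called (adjusted p = 0.279, 0.409 and 0.297). Of 13 genes that ERK induces and most of which feed back on it, 4 fell and none rose in homozygous relative to wild-type cells, where 4.18% of all genes were called downwards. DUSP6, an ERK phosphatase gene, had 65.0, 65.9 and 73.8 CPM in homozygous, 104.7, 109 and 68.8 CPM in heterozygous and 104.2, 117 and 122 CPM in wild-type replicates. It fell by 0.75 in homozygous relative to wild-type cells (SE 0.15, edgeR adjusted p = 0.00691). DUSP6 and SPRY2 were called in all 15 alternatives. SPRY2, an inhibitor of receptor signalling, fell by 0.56 (SE 0.10, edgeR adjusted p = 0.00299), and SPRED2 by 0.32 (adjusted p = 0.0285) and the ETS factor gene ETV1 by 0.51 (adjusted p = 0.0136) were also called. Without wild-type replicates 1, 2 or 3 the call of ETV1 was lost (0.0520, 0.0513 and 0.0513), as was that of SPRED2 (0.0979, 0.118 and 0.0738), which was also lost without homozygous replicate 2 (0.0812). In heterozygous relative to wild-type cells 1 of the 13 fell, against 1.04% of all genes called lower. This was DUSP4 (-0.55, adjusted p = 0.0362), with 345 ± 68.2 CPM in homozygous, 314 ± 12.1 CPM in heterozygous and 459 ± 33.4 CPM in wild-type cells. This call was lost without heterozygous replicates 1 (0.133), 2 (0.151) or 3 (0.0748), homozygous replicate 1 (0.0532) or wild-type replicates 2 (0.199) or 3 (0.167). DESeq2 called 2 of the 13 in this comparison, against 2.95% of the genes it gave an adjusted p. SPRY2 was not called here by edgeR (-0.40, adjusted p = 0.0568), but it was in 5 of 15 alternatives, among them DESeq2 (0.00875). Between the mutants 0 of the 13 were called by edgeR, with 5 at an unadjusted p below 0.05, against 18.3% of all genes. DESeq2 called 1, DUSP6 (adjusted p = 0.0486), against 4.99% of the genes it gave an adjusted p.

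Wild-type replicate 1 was the highest wild-type library for 7 of the 10 members and 38.2% of all genes, and wild-type replicate 2 the lowest for 8 members and 30.4% of all genes. In wild-type replicate 1 the deviation from the genotype mean was 0.43 for JUNB, 0.38 for FOS and 0.33 for JUN on the log2 scale, against -0.22 for IER3. Homozygous replicate 3 was the lowest of the 9 libraries for 3 members, FOSB, JUN and EGR1, while FOSL1 and DUSP1 lay above their homozygous mean there, by 0.996 and 0.33. Of all genes tested, 11.7% were lowest in that library.

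Heterozygous replicate 3 was the lowest of the 9 libraries for 5 of the 10 members, FOS, JUND, IER2, IER3 and DUSP1, and the highest for 0, while 20.3% of all genes were lowest and 19.6% highest in that library. Among the 33 other early genes it was lowest of 9 for 14 and highest for 0. The genes named from here to the end of the paragraph were chosen after their values were seen, apart from HSPA8. CCN1 and CCN2, matricellular genes that answer serum and mechanical signals, had 68.5, 65.4 and 35.7 CPM and 89.98, 96.2 and 49.9 CPM in heterozygous replicates 1, 2 and 3. The 13 ERK feedback genes went both ways there, with 3 lowest and 3 highest of 9. SPRY1 had 10.03, 10.8 and 4.24 CPM in heterozygous replicates 1, 2 and 3, and DUSP6 was also lowest of the 3 there, while SPRED3 and DUSP7 lay 0.24 and 0.20 above the heterozygous mean on the log2 scale. Heat shock and stress genes also went both ways in this library: of 15 tested, 8 were highest and 3 lowest of 9. In heterozygous replicate 3, 7 of them lay more than 0.3 above the genotype mean on the log2 scale and 1 more than 0.3 below it, where 8.74% and 13.7% of all genes did. In each of the other 8 libraries 0 to 2 of the 15 lay more than 0.3 above it. The low genes included the heme oxygenase gene HMOX1, at -0.79 from the heterozygous mean, and the chaperone genes HSPE1 (-0.27) and HSPB1 (-0.15). The chaperone genes HSPA8, DNAJB1 and DNAJB4 had 1600, 1633 and 2416 CPM, 73.2, 68.5 and 101.3 CPM, and 9.51, 9.03 and 14.9 CPM in heterozygous replicates 1, 2 and 3. The mitochondrial share was also highest there, at 6.06%. The summed level of the 16 listed stress genes in the table was 6882 to 7352 CPM in homozygous, 7324 to 8650 CPM in heterozygous and 7263 to 8455 CPM in wild-type libraries. HSPA1A, the classic inducible heat shock gene, had 0 to 5 counts. How the counting treated reads shared with near-identical genes is not stated, so its level cannot be judged from these counts. None of the 15 was called by edgeR in any comparison, with 4, 1 and 4 at an unadjusted p below 0.05, and DESeq2 called 2, 0 and 1. Of all genes, 23.2%, 13.5% and 18.3% had such a p. DESeq2 called 9.78%, 2.95% and 4.99% of the genes it gave an adjusted p.

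**Figure D5:**
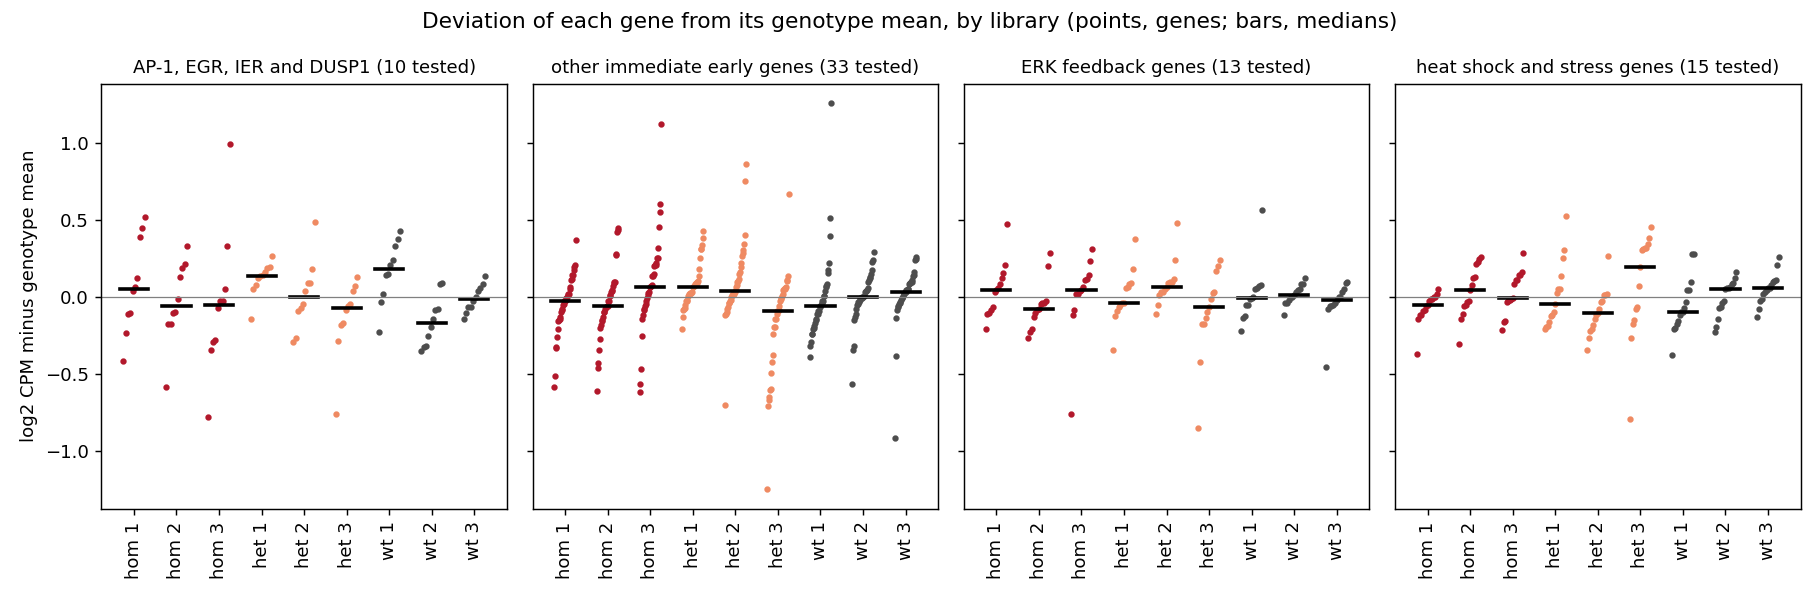
Log2 CPM of each gene minus its genotype mean, by library (homozygous, heterozygous, wild type from left to right), for the 10 members, 33 other early genes, 13 ERK feedback genes and 15 heat shock and stress genes; bars are medians. In heterozygous replicate 3 the median is -0.07, -0.09 and -0.06 in the first 3 panels and 0.20 in the last.

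With heterozygous replicate 3 left out, edgeR called no member in either comparison with heterozygous cells. CCN1 and CCN2 were then called lower in homozygous than in wild-type cells (adjusted p = 0.00192 and 0.0105, against 0.101 and 0.104 with all libraries) and DUSP6 lower in homozygous than in heterozygous cells (0.00467, against 0.122). These 3 genes had been chosen as low in this library, so leaving it out narrows their spread by construction. CCN1 and CCN2 in homozygous relative to wild-type cells were also called by DESeq2 with all libraries (0.0433 and 0.0450). The edgeR fit of the 6 libraries alone called them too (0.00534 and 0.0212). SPRY1 and HMOX1, named above in the same way, became called in that comparison without heterozygous replicate 3. SPRY1 was lower (0.0300, against 0.326) and HMOX1 higher (0.0169, against 0.0858). Homozygous against wild-type cells holds no heterozygous library, but the fit shares an estimate of the spread. Over all genes, 1610 were called in that comparison and 261 between the mutants, against 1293 and 372 with all libraries. Without heterozygous replicate 3, IER2 differed by -0.06 in heterozygous relative to wild-type cells (edgeR adjusted p = 0.831), against -0.19 with all libraries, and IER3 by -0.36 (adjusted p = 0.212). The labels give no date or remark on handling to separate heterozygous replicate 3, and the part of handling in its values was not tested. Across all 9 libraries, the 5 other genes whose deviations from the genotype mean tracked the mean deviation of the 10 members best were RPL13P5, PIK3CD, PLEKHD1, SLC2A10 and PMM1, with Pearson's r of 0.953 to 0.974. This is a description over 9 libraries that share their depth and scaling, picked from all genes tested, and none of the 5 was on a list of early genes.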

How the data were processed

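Gene expression was measured by RNA sequencing of 9 libraries of H9-derived endoderm, 3 per CHD7 genotype, which were grouped by the genotype and replicate number in the labels. The authors deposited raw read counts per Ensembl gene, 1 column per library and unpooled. The submitters' processing notes name hg38 as the build and FastQC, Trimmomatic, HISAT2, SAMtools and HTSeq as tools. Versions, annotation and strand setting are not stated in those sources. Symbols were matched for 26234 of 26240 genes, and coordinates and exon lengths were taken from GENCODE release 29 on GRCh38.

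In R 4.3.3 with edgeR 4.0.16, filterByExpr by genotype left 16837 genes. After TMM scaling, edgeR's quasi-likelihood test was applied to all 9 libraries together, genotype being the single term (common BCV 0.121). Two-sided p-values were adjusted by Benjamini-Hochberg across the genes tested, and a gene counts as called under 0.05. Each SE was taken as log2 fold change over root F. Deviations between libraries used log2 CPM with a prior count of 2. The test was checked on simulated counts with 200 changed genes per comparison. These counts were drawn with the spread fitted here, and the changed genes lay above a minimum level that FOSL1 did not reach. The check therefore does not cover FOSL1 or shifts of single libraries. Counts without molecular identifiers are not independent molecules, and depth (11854173 to 37519729) limits FOSL1, FOSB, FOS and EGR1 most.

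The genes and lists were chosen with earlier results of these data known. Every member is named; list genes are named where called (5 or fewer per list), with up to 4 of the most abundant, and other list genes are marked as chosen after their values were seen. Chi-square values per degree of freedom between replicates of a genotype were 2.65 to 33.5, so no libraries were merged. Alternatives were 2 other scalings, no filter, DESeq2 1.42.0, separate fits of 6 libraries, a replicate block, unadjusted totals for levels, and omission of each library in turn.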

Additional observations from a re-analysis of the deposited data

How the results depend on the processing

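Called genes numbered 1293 between homozygous and wild-type, 313 between heterozygous and wild-type and 372 between homozygous and heterozygous cells, and called members 1, 0 and 0. With relative log expression or upper quartile scaling, and in the fit of the 6 libraries of a comparison, 0 members were called in homozygous relative to wild-type cells, where 4 had an unadjusted p below 0.05 in the reported fit. DESeq2 called 2, 1 and 2 members and 1703, 543 and 819 genes in the same order. For the comparisons with heterozygous cells the 6-library fits called 604 and 177 genes.

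The labels do not say whether libraries with the same replicate number belong together. Correlations of deviations between same-numbered libraries ran from -0.195 to 0.245. They were not set against those of other pairs, so they cannot settle this. With the replicate number as a block, 0 members were called in homozygous relative to wild-type cells (IER3 adjusted p = 0.0582), and the genes called were 1503, 492 and 461.

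Leaving out each library in turn gave 651 to 2118, 130 to 624 and 141 to 377 called genes, and 0 to 3, 0 to 1 and 0 to 1 called members. Log2 fold changes that changed sign ranged from -0.017 to 0.11 for IER2 in homozygous relative to wild-type cells, from -0.40 to 0.13 for FOS and -0.25 to 0.040 for FOSB in heterozygous relative to wild-type cells, and between the mutants from -0.44 to 0.10 for FOS, -0.17 to 0.083 for JUN, -0.070 to 0.10 for IER3 and -0.10 to 0.19 for DUSP1. Of the 450 member values under these alternatives 422 kept direction and side of the threshold, 8 became called, 9 lost a call and 11 changed sign; the cause was not tested. Depth limits FOSL1, FOSB, FOS and EGR1, which had at most 101 counts per library.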
